A study of Mus musculus with 8 samples.

Results

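A set of 9 genes was examined that encode proteins of the cardiomyocyte membrane and of its links to the contractile apparatus: Des, Cav3, Dmd, Sgcd, Bves, Popdc2, Popdc3, Vcl and Xirp1. They were taken by gene symbol from the 20701 symbols of the count table, and all 9 were found. The RNA came from pharyngeal mesoderm and hearts of C57BL/6 mouse embryos at E8.75, when they had 6 somites, with 1 embryo per library. There were 4 Isl1-/- embryos, called knockout here, and 4 wild-type embryos. The product of Isl1 is a LIM-homeodomain factor made by second heart field progenitors, which add cells to both ends of the forming heart tube. The knockouts came from an Isl1 knockout line whose embryos die early in development. Dissected tissue was used without separating cell types, so each library mixed heart muscle with pharyngeal and other cells.

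Heart muscle cells transmit force sideways through costameres, protein assemblies that tie the Z-discs of the outer myofibrils to the cell membrane and the matrix outside. One arm of the costamere is the dystrophin-glycoprotein complex, in which dystrophin (Dmd) binds actin inside the cell and the sarcoglycans, among them delta-sarcoglycan (Sgcd), span the membrane. The other arm joins integrins to actin through talin and vinculin (Vcl). Desmin (Des) forms the muscle intermediate filaments that link neighbouring myofibrils and the membrane, caveolin-3 (Cav3) shapes muscle caveolae, and Xirp1 encodes the actin-binding protein Xin of the forming intercalated disc. The Popeye genes Bves, Popdc2 and Popdc3 encode membrane proteins that bind cyclic AMP and are best known from heart and skeletal muscle, where Popdc2 and Bves are needed for normal pacemaking.

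With 1 transcript kept per gene, the wild-type libraries held 23480470 to 26153039 reads and the knockout libraries 18916452 to 25047013. Isl1 itself was at 9.72 to 26.9 CPM (reads per 1000000 after TMM scaling) in wild-type and 1.78 to 2.40 CPM in knockout embryos, with a log2 fold change of -3.00 (SE 0.36, edgeR FDR 0.0041). The labels gave polyA RNA for 7 libraries and total RNA for knockout embryo 2. Y-linked genes were expressed above stray reads in 3 of 4 knockout and 1 of 4 wild-type embryos, so results were also computed with Y-linked expression as a covariate. All 12 sarcomere genes listed as cardiomyocyte markers were detected, from troponins to titin, and their summed level was 3304 to 4908 CPM in wild-type and 1770 to 2668 CPM in knockout embryos. Of the skeletal muscle regulators, Myog had no read in 7 of 8 libraries and 3 reads in the other, Myod1 had 0 to 4 reads and Myf6 0 to 3. Myf5 had more, with 6 to 23 reads per wild-type and 12 to 31 per knockout library. Of the other genes in this list of 8 skeletal muscle markers, Actn3 had 119 to 195 reads per library and Tnnt3 99 to 129. Ckm and Myh3 had at most 5 and 7 reads. The summed level of the list was 10.1 to 13.6 CPM in wild-type and 12.3 to 14.2 CPM in knockout embryos. Its 3 tested genes were measured higher in the knockout, and 0 passed the FDR.

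Of the 9 genes, 8 passed the expression filter and were tested together with all 14075 genes that passed it. They were chosen with earlier results of these data known, so their shares beside a background are a description and no test of enrichment. Popdc2 and Xirp1 fell in the knockout with an FDR under 0.05 in edgeR's quasi-likelihood test, so 2 of 8 tested genes were called lower, against a background of 0.867% of all genes tested. Des and Bves were lower in every knockout embryo than in any wild-type embryo but had FDRs of 0.0609 and 0.0614. The 4 genes with no overlap between genotypes compare with 6.33% of all genes that were lower without overlap, and 10.3% in either direction. When genes were instead counted by the criteria that the study used, a log2 fold change beyond 0.58 (1.5-fold) and unadjusted p under 0.05, these 4 genes passed (background 2.26% lower, 3.93% in either direction). Bves, at -0.59, lay at that limit: it no longer passed with RLE scaling, without the expression filter, with all transcript entries, or without wild-type embryo 2, wild-type embryo 4, knockout embryo 1 or knockout embryo 2. The count was 3 in these fits, except without wild-type embryo 2 or knockout embryo 2, where Sgcd passed as higher in the knockout and the count was 4. DESeq2 (Wald test, adjusted p under 0.05) also called these 4 genes (background 3.53% lower). Dmd, Sgcd, Vcl and Popdc3 had overlapping values and passed none of these criteria. Over the 8 tested genes the median log2 fold change was -0.50, with 6 lower and 2 higher, and over all genes tested it was 0.01.

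**Figure D1:**
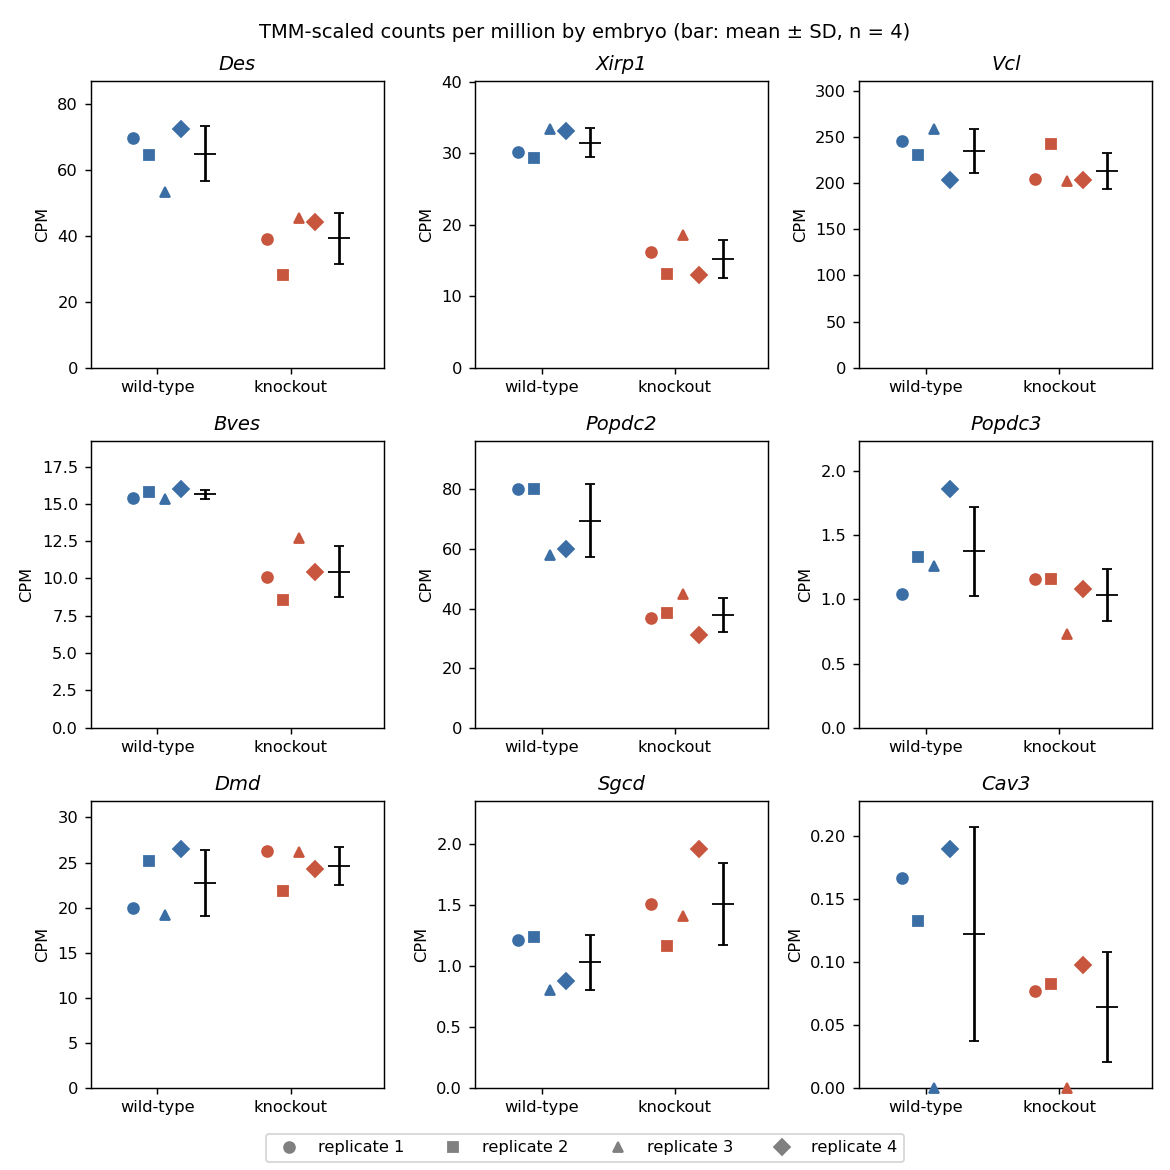
TMM-scaled reads per 1000000 (CPM) of each of the 9 genes in the 4 wild-type (blue) and 4 knockout (red) embryos, with marker shapes for replicates 1 to 4 and black bars for the mean ± SD. Des, Xirp1, Bves and Popdc2 show no overlap between genotypes, and the Cav3 axis ends below 1 CPM.

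Of the genes for filaments and actin linkers, Xirp1 was the 1 that passed the FDR. Xirp1 (NM_011724, chromosome 9, 119922873 to 119932716, minus strand, mm9) had 30.1, 29.3, 33.4 and 33.1 CPM in the wild-type (embryos 1, 2, 3 and 4 in turn) and 16.2, 13.1, 18.5 and 13.0 CPM in the knockout. The lowest wild-type embryo was 58.4% above the highest knockout embryo. The group means were 31.5 ± 2.06 and 15.2 ± 2.68 CPM (SD, n = 4), which left 48.2% of the wild-type level, with a log2 fold change of -1.05 (SE 0.13, edgeR FDR 0.00389). Xirp1 passed the FDR in each of the other fits and without any single embryo. Bulk RNA cannot tell fewer heart muscle cells from less RNA per cell, for this gene or for those that follow.

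Des (NM_010043, chromosome 1, 75356904 to 75365154, plus strand, mm9) had 69.8, 64.5, 53.4 and 72.6 CPM in the wild-type (embryos 1, 2, 3 and 4 in turn) and 39.0, 28.3, 45.4 and 44.4 CPM in the knockout. The genotypes were separated by a gap of 17.7% between wild-type embryo 3 and knockout embryo 3. The means were 65.1 ± 8.47 and 39.3 ± 7.86 CPM (SD, n = 4), with a log2 fold change of -0.73 (SE 0.15, edgeR FDR 0.0609). The exact two-sided permutation test on CPM gave p = 0.0286, the smallest value possible with 4 against 4 embryos. The call depended on the fit: DESeq2 gave an adjusted p of 2.78e-04, the covariate for Y-linked expression moved the log2 fold change to -0.95 (FDR 0.0145), and the fit without wild-type embryo 3 gave -0.81 (FDR 0.026). In the other direction, the FDR was 0.104 with a replicate block, and without any one of the other 7 embryos it lay between 0.0566 and 0.189, the highest being without wild-type embryo 1.

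The Popeye genes were next compared as a family. Popdc2 (NM_001081984, chromosome 16, 38362295 to 38378302, plus strand, mm9) had 80.1, 80.2, 58.1 and 59.9 CPM in the wild-type (embryos 1, 2, 3 and 4 in turn) and 36.8, 38.4, 44.8 and 31.2 CPM in the knockout. The wild-type embryos formed a high and a low pair, and both pairs lay above every knockout embryo. The high pair, embryos 1 and 2, had 9.72 and 9.76 CPM of Isl1, and the low pair had 26.9 and 23.3 CPM. The pairs were seen after the fact, and a relation to Isl1 was not tested. Xirp1 ran the other way, at 30.1 and 29.3 CPM in embryos 1 and 2 and 33.4 and 33.1 CPM in embryos 3 and 4. Des and Bves did not split by these pairs. Popdc2 fell by 0.88 on the log2 scale (SE 0.14, edgeR FDR 0.0189), with means of 69.6 ± 12.2 CPM in wild-type and 37.8 ± 5.59 CPM in knockout embryos (SD, n = 4). Its FDR rose above 0.05 with the Y-linked covariate (log2 fold change -0.79, FDR 0.0952) and when single embryos were left out: 0.066 without wild-type embryo 1, 0.0608 without wild-type embryo 2, 0.0721 without knockout embryo 1 and 0.0643 without knockout embryo 4. The shorter Popdc2 entry (NM_022318, 2041 bases) gave a log2 fold change of -0.86 (FDR 0.0117) when all transcript entries were fitted together. In the GENCODE annotation Popdc2 shares 89 exon bases with Cox17 on the same strand. Cox17 was at 20.4 ± 1.7 CPM in wild-type and 18.8 ± 3.72 CPM in knockout embryos (SD, n = 4; log2 fold change -0.12, edgeR FDR 0.691).

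Bves, also called Popdc1 (NM_024285, chromosome 10, 45055568 to 45089514, plus strand, mm9), had 15.4, 15.8, 15.3 and 16.0 CPM in the wild-type (embryos 1, 2, 3 and 4 in turn) and 10.1, 8.58, 12.7 and 10.4 CPM in the knockout. Its wild-type values lay within a narrow range, and knockout embryo 3 came closest to them. The means were 15.6 ± 0.326 and 10.4 ± 1.68 CPM (SD, n = 4), with a log2 fold change of -0.59 (SE 0.12, edgeR FDR 0.0614, exact two-sided permutation p = 0.0286). The FDR was 0.0487 without wild-type embryo 3 and 0.0317 without knockout embryo 3, and DESeq2 gave an adjusted p of 0.00101. Without any one of the other 6 embryos the FDR lay between 0.0857 and 0.185, and with a replicate block it was 0.135.

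Popdc3 (NM_024286, chromosome 10, 45009111 to 45038256, plus strand, mm9), the neighbour of Bves on chromosome 10, was far weaker, with 25 to 49 reads per wild-type and 14 to 30 per knockout library. Its levels were 1.04, 1.33, 1.26 and 1.86 CPM in wild-type embryos, taken in order, and 1.16, 1.16, 0.732 and 1.08 CPM in knockouts. The genotypes overlapped (log2 fold change -0.41, SE 0.26, edgeR FDR 0.446). At this depth a decrease of the size seen for Bves lay within 1 SE of the estimate and could not be told from no change.

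Per length of transcript, in reads per kilobase and per 1000000 reads (RPKM), Popdc2 was the main Popeye transcript in these embryos. It made up 74.8 ± 3.57% of the summed Popeye RPKM in wild-type and 70.9 ± 3.13% in knockout embryos (SD, n = 4), Bves 23.4 ± 3.04% and 26.8 ± 3.14%, and Popdc3 1.80 ± 0.61% and 2.35 ± 0.653%. None of the 3 shares passed an exact two-sided permutation test adjusted over the 3 (adjusted p = 0.2143, 0.2143 and 0.2857), and 0 of 3 had an unadjusted p under 0.05. With so few embryos a single share could not have passed after this adjustment, whatever its values. The difference for Popdc2 was -3.98 percentage points, and leaving out single embryos moved it between -5.21 and -2.66.

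**Figure D2:**
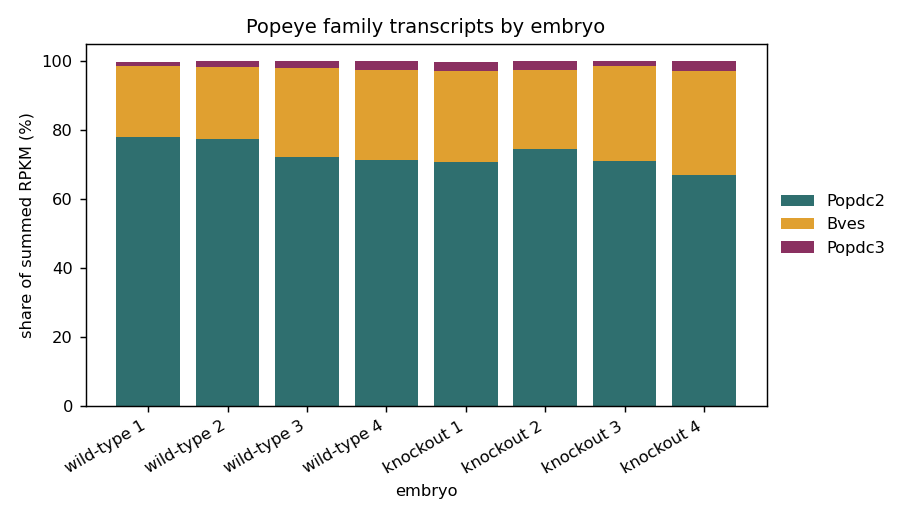
Stacked bars of the share of Popdc2, Bves and Popdc3 in their summed RPKM (percent) for each wild-type and knockout embryo. Popdc2 takes between 66.9% and 78.2% of every bar, and Popdc3 under 3%.

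The actin-binding arm of the costamere that runs through vinculin included the gene with the highest level of the set. Vcl (NM_009502, chromosome 14, 21748655 to 21852895, plus strand, mm9) had 246, 231, 259 and 203 CPM in the wild-type (embryos 1, 2, 3 and 4 in turn) and 205, 242, 202 and 204 CPM in the knockout. The genotypes overlapped, because knockout embryo 2 lay among the wild-type embryos and wild-type embryo 4 among the knockout embryos. Its log2 fold change of -0.14 (SE 0.09, edgeR FDR 0.45) became -0.00 with the Y-linked covariate. The embryo with the highest Vcl of each genotype also had the most reads of Afp, a yolk sac endoderm marker: 9257 reads in wild-type embryo 3, where the rest of that genotype had 1256 to 5795, and 20258 reads in knockout embryo 2, where the rest had 960 to 13074. This match was seen after the fact, and the other embryos did not follow it throughout. Knockout embryo 3, with 13074 Afp reads, had the lowest Vcl of its group, at 202 CPM. Wild-type embryo 2 had more Afp reads than embryo 1, 5795 against 3312, but less Vcl. The part of yolk sac cells in the Vcl values was not tested. In the GENCODE annotation 2087 exon bases of Vcl are shared with Ap3m1 on the opposite strand, which encodes a subunit of an adaptor complex for vesicle traffic. Counting ignored strand, so the 2 genes' reads could not be told apart there. Ap3m1 was at 122 ± 14.9 CPM in wild-type and 107 ± 5.84 CPM in knockout embryos (SD, n = 4; log2 fold change -0.20, edgeR FDR 0.281). Opposite-strand overlaps were also annotated for Des (220 exon bases, Gm15179) and Popdc3 (120 exon bases, Gm15934). Neither Gm15179 nor Gm15934 had counts of its own here.

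The dystrophin arm showed no gene past the FDR, but the Dmd value says little of the full-length form, as its transcript entries show below. Dmd (chromosome X, 80194209 to 82451480, plus strand, mm9) had 20, 25.2, 19.2 and 26.5 CPM in the wild-type (embryos 1, 2, 3 and 4 in turn) and 26.3, 21.8, 26.2 and 24.3 CPM in the knockout. The values interleaved (log2 fold change 0.12, SE 0.12, edgeR FDR 0.67), and the estimate was -0.02 with the Y-linked covariate, so its sign depended on that term. Sgcd (NM_011891, chromosome 11, 46709755 to 47802471, minus strand, mm9) rested on 19 to 40 reads per library. It was at 1.21, 1.24, 0.801 and 0.874 CPM in wild-type embryos, taken in order, and 1.51, 1.16, 1.41 and 1.96 CPM in knockouts. Knockout embryo 2 lay below the 2 highest wild-type embryos, and the log2 fold change of 0.55 (SE 0.25) had an edgeR FDR of 0.30.

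The table held 6 transcript entries for Dmd, and they differed in how their reads were placed. The longest (NM_007868, 13771 bases, the full-length form) was the entry with the most reads and was the one tested. An entry of 4547 bases (NM_001314036) held nearly as many: 455, 537, 446 and 673 reads against 480, 569, 456 and 698 in the wild-type, embryo by embryo, and 658, 516, 470 and 479 against 680, 525, 502 and 497 in the knockout. The 9224 further bases of the long entry thus added a net 9 to 32 reads per library, or 0.976 to 3.47 reads per kilobase, against 98.1 to 148 reads per kilobase on the 4547-base entry. These ranges held across both genotypes. Because the short entry may have exon sequence of its own that the long entry lacks, the net figure is a difference of counts and not a count of reads. Whether read coverage declined along long transcripts in these libraries was not tested. The short entry held 93.6% to 98.3% of the long entry's read number. The Dmd values here and in later comparisons thus say little of the full-length form.

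**Figure D3:**
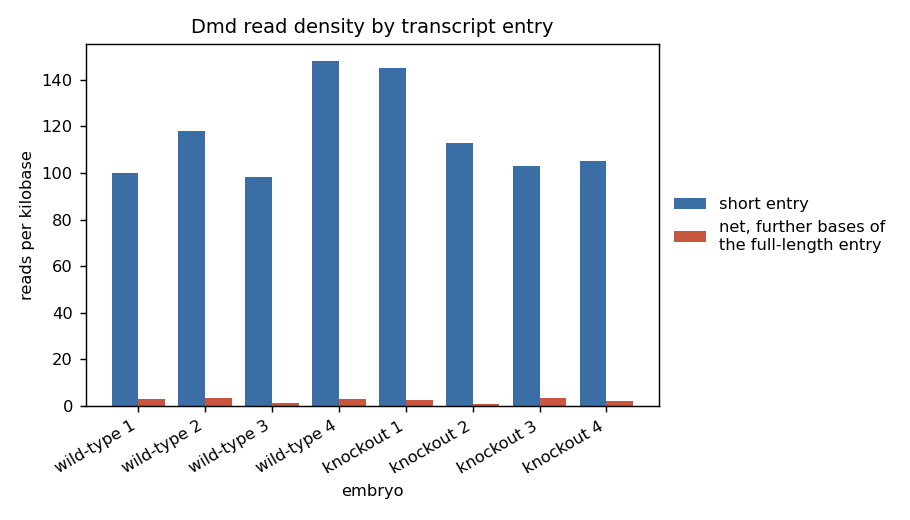
Reads per kilobase of the 4547-base Dmd entry (blue) and net reads per kilobase of the further bases of the 13771-base entry (red) in each embryo, not scaled for depth. The red bars stay below 4 reads per kilobase in all 8 embryos, while the blue bars lie between 98.1 and 148.

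In GENCODE a short Dmd transcript of 18 exons and 4438 bases starts at position 82293752 of chromosome X (mm9), far downstream of the full-length transcript of 79 exons that starts at 80194242. Short Dmd products made from the 3' part of the gene, such as Dp71, are known from many tissues outside muscle. The 4 entries of 4478 to 4547 bases had log2 fold changes of 0.13 to 0.14 when all entries were fitted together, with FDRs from 0.589 to 0.617. Their level was 4.79 ± 0.755 RPKM in wild-type and 5.21 ± 0.385 RPKM in knockout embryos for the 4547-base entry (SD, n = 4), against 1.65 ± 0.266 and 1.79 ± 0.155 RPKM for the long entry, whose value is spread over bases with few reads.

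Cav3 (NM_007617, chromosome 6, 112409495 to 112422865, plus strand, mm9) was at the limit of detection. It had 4, 3, 0 and 5 reads in wild-type and 2, 2, 0 and 2 reads in knockout embryos 1 to 4, and did not pass the expression filter. With a limit of 3 reads per library, no knockout library lay above it. No fold change is given.

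The levels of the 9 genes were ordered per length in the wild-type embryos. Vcl was highest at 45.1 ± 4.62 RPKM, followed by Popdc2 at 31.9 ± 5.61, Des at 21.3 ± 2.77, Bves at 9.78 ± 0.204, Xirp1 at 5.40 ± 0.354 and Dmd at 1.65 ± 0.266 RPKM (SD, n = 4). Popdc3 at 0.745 ± 0.188 and Sgcd at 0.742 ± 0.163 RPKM did not differ beyond their spread, and Cav3 was last at 0.106 ± 0.0737 RPKM. Apart from Popdc3 and Sgcd, the ranges of neighbours in this order did not overlap. The place of Dmd rests on the long entry: its 4547-base entry, at 4.79 ± 0.755 RPKM, would stand next to Xirp1 and within the spread of it. In knockout embryos Vcl, at 40.9 ± 3.64 RPKM, was above Popdc2 and Des at 17.3 ± 2.56 and 12.9 ± 2.57 RPKM.

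Promoter sequence from RefSeq (GRCm38.p6) was available for 6 of the 9 genes: Cav3, Des, Dmd, Popdc2, Sgcd and Vcl. Each window ran from 250 bases before to 50 bases after an annotated start. Those of Des and Popdc2, which were lower in every knockout embryo, are shown beside that of Vcl, whose genotypes overlapped, and beside both Dmd starts, which lie 2099425 bases apart. Windows were searched on both strands for a CArG box, to which SRF binds, and a MEF2 box. The other motifs were TATAAA as a core promoter element, the sequence AGATAA as a site of the zinc finger factors of early heart development, the sequence CAAGTG as a site of Nkx2-5 and the sequence CTAATG as a site of Isl1. Capitals mark every match. No matches of different motifs overlapped.
Des, chr1:75360042-75360341, plus strand: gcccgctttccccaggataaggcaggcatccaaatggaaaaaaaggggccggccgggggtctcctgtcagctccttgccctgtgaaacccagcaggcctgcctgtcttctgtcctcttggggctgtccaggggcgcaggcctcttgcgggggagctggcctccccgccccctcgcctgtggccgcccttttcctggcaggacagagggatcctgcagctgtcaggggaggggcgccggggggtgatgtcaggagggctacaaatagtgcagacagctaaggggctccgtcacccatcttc
Popdc2, chr16:38361940-38362239, plus strand: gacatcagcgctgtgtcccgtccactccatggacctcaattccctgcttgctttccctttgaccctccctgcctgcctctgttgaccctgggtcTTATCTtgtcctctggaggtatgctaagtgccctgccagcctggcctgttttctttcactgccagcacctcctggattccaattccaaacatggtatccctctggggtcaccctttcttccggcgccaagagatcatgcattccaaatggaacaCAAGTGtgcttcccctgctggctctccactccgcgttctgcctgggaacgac
Vcl, chr14:20929148-20929447, plus strand: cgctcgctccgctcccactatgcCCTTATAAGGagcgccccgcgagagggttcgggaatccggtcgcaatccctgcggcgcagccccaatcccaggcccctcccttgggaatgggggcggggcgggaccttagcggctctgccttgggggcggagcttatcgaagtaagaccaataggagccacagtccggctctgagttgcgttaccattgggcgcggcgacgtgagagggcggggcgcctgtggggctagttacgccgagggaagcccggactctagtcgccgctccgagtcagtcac
Dmd upstream start, chrX:82948620-82948919, plus strand: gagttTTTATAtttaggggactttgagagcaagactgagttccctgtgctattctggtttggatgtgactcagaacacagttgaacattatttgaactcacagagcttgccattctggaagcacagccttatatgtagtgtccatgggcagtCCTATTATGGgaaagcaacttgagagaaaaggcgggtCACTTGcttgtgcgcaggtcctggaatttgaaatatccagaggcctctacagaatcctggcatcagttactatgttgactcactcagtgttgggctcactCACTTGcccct
Dmd downstream start, chrX:85048045-85048344, plus strand: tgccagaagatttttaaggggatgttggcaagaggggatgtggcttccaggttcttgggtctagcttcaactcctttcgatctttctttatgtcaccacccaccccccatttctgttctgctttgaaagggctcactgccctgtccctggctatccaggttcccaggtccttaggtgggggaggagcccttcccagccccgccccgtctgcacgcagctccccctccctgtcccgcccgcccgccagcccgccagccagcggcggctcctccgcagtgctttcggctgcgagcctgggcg

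A CArG box was matched in the Vcl window, 227 bases before the start, and in the window of the upstream Dmd start, and this motif was found in 1.63% of all 32851 windows of the same length. The upstream Dmd window also held TATAAA once, on the opposite strand at -245 from the start (13.6% of all windows). It held CAAGTG in 2 places on the opposite strand, at -61 and 39. The Popdc2 window held AGATAA on the opposite strand at -156, matched in 11.2% of all windows, and CAAGTG at -2, matched in 13.6%. The window of the downstream Dmd start and that of Des held none of the 6 motifs, and neither did those of Cav3 and Sgcd. CTAATG (7.36% of all windows) and the MEF2 box (0.557%) were matched in none of the 7 windows. GC content was 65.3% for Des, 56% for Popdc2 and 66.7% for Vcl, and 45.7% and 62.7% for the upstream and downstream Dmd starts.

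The genes were then set against the sarcomere genes of the same embryos, which mark heart muscle. Which cells of the mixed tissue expressed the 9 genes was not measured. The geometric mean of 12 sarcomere genes was 271, 264, 187 and 253 CPM in wild-type embryos, taken in order, and 127, 99.6, 149 and 115 CPM in knockouts, and 50.3% of the wild-type mean remained (exact two-sided permutation p = 0.0286, n = 4 each). Of these 12 genes 11 passed the edgeR FDR, each lower in the knockout, with a median log2 fold change of -1.01. Of 6 smooth muscle markers 5 were measured lower and 1 higher, and 2 passed the FDR, both lower (Acta2 and Cnn1). Their summed level was 662 to 1048 CPM in wild-type and 496 to 617 CPM in knockout embryos (exact two-sided permutation p = 0.0286, n = 4 each). Acta2 gave most of that sum, with 10986 to 17804 reads per wild-type and 6675 to 9757 per knockout library, whereas Mylk had 880 to 1319 and 828 to 1617 reads. Which cells of this tissue expressed the smooth muscle markers was not measured. Their part in the values of Des, Bves, Popdc2 and Xirp1 was not tested. The summed levels of the endothelial, endoderm, neural, neural crest, erythroid and yolk sac lists overlapped between genotypes. Neural crest markers, of which all 5 were measured higher, had 435 to 631 CPM in wild-type and 595 to 750 CPM in knockout embryos (exact two-sided permutation p = 0.1143, n = 4 each).

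Relative to the sarcomere genes, Xirp1 and Popdc2 differed least between genotypes among the 8 tested genes. The log2 ratio of Xirp1 to the geometric mean was -2.94 ± 0.32 in wild-type and -3.01 ± 0.09 in knockout embryos (SD, n = 4), a difference of -0.07 (exact two-sided permutation p = 0.80). For Popdc2 it was -1.81 ± 0.18 and -1.69 ± 0.22, a difference of 0.12 (exact p = 0.5429, n = 4 each). For Des the difference was 0.25 (exact p = 0.0857, n = 4 each), and for Bves 0.39 (exact p = 0.0571, n = 4 each), both higher relative to sarcomere genes in the knockout. These p-values do not show that the ratios were alike.

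For Dmd, Sgcd, Vcl and Popdc3, whose own levels did not pass the test, the ratio mainly carries the fall of the sarcomere genes: a gene at an equal level in both genotypes, whatever cells it comes from, has a higher ratio in the knockout. The values for Dmd and Sgcd are given as such a description and are no evidence that either gene rose. The log2 ratio of Dmd was -3.76, -3.39, -3.28 and -3.26 across the wild-type embryos and -2.27, -2.19, -2.50 and -2.24 across the knockouts. That of Sgcd was -7.81, -7.73, -7.87 and -8.18 across the wild-type embryos and -6.40, -6.42, -6.72 and -5.88 across the knockouts. For both genes the genotypes did not overlap, with differences of 1.12 for Dmd and 1.54 for Sgcd (exact two-sided permutation p = 0.0286 for each, n = 4). For Vcl the difference was 0.86 (exact p = 0.0571, n = 4 each), with wild-type embryo 3 at 0.47 just above knockout embryo 3 at 0.44. For Popdc3 it was 0.59 (exact p = 0.1714, n = 4 each). Adjusted over the 8 genes tested, 0 passed, with the smallest adjusted p at 0.1143, and 2 had an unadjusted exact p under 0.05. With 4 against 4 embryos no single p could fall below 0.0286. Dmd and Sgcd, both at that floor, could therefore not pass after adjustment without more genes at the floor. That 0 passed is no evidence that the ratios were alike.

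**Figure D4:**
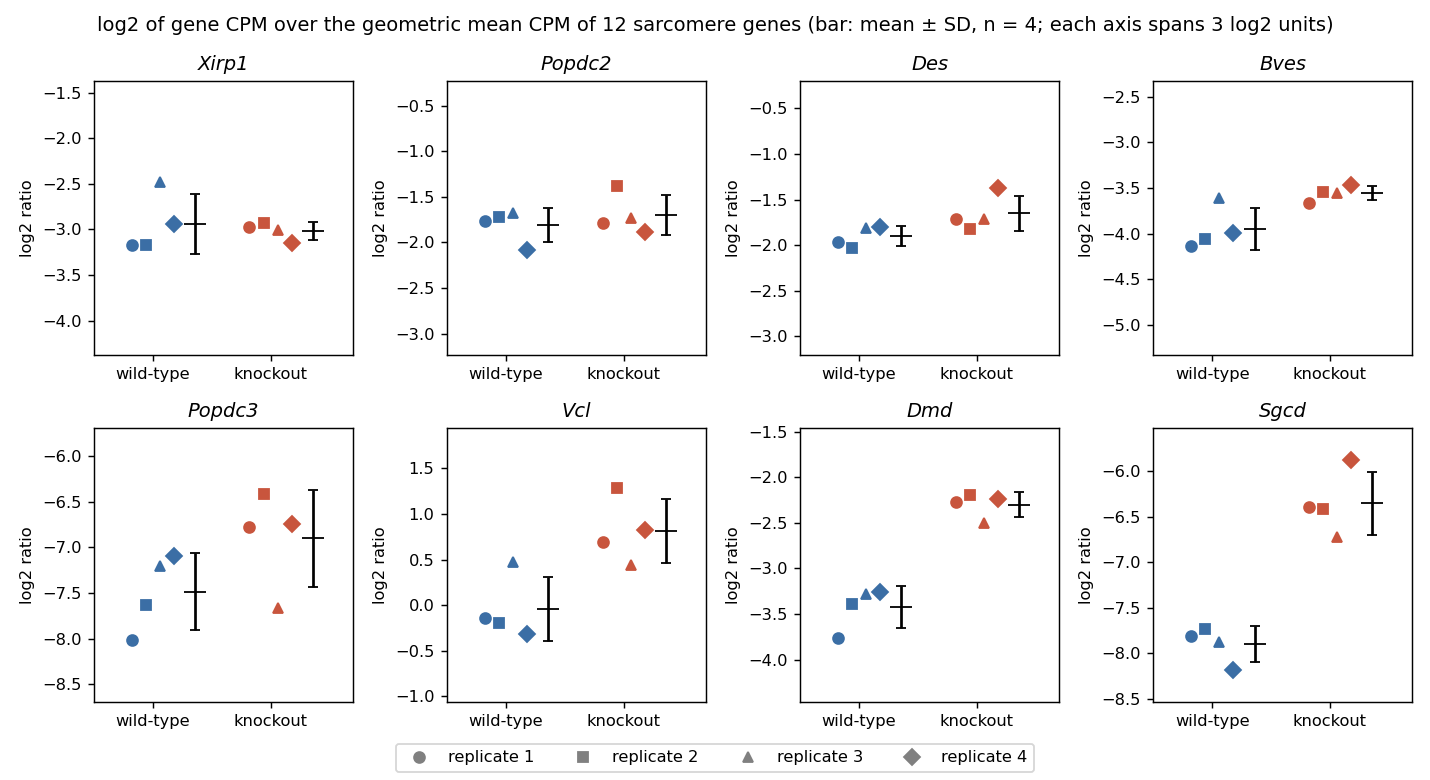
log2 ratio of each gene's CPM to the geometric mean CPM of 12 sarcomere genes in each wild-type (blue) and knockout (red) embryo, with mean ± SD in black and every axis spanning 3 log2 units. Xirp1 and Popdc2 lie at similar heights in both genotypes, while Dmd and Sgcd lie higher in all 4 knockout embryos.

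The embryos at the extremes of the sarcomere level were extreme for some of the genes and not for others. Knockout embryo 3 had the highest sarcomere level of its group and the highest Des, Bves, Popdc2 and Xirp1. Knockout embryo 2 had the lowest sarcomere level and the lowest Des, Bves, Dmd and Sgcd, while Popdc2 and Xirp1 were lowest in knockout embryo 4. Wild-type embryo 3 had the lowest sarcomere level and the lowest Des, Bves, Popdc2, Dmd and Sgcd of its group, but the highest Xirp1 and Vcl. Wild-type embryo 1 had the highest sarcomere level and was highest for none of the 8 tested genes.

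Profiles were compared by the root mean square difference of log2 CPM over the 8 embryos after centring each gene on its mean, as a description without a test. The closest genes to Des were Cacna2d2 (0.084), Kcnj5 (0.106) and Casz1 (0.108), which encode a calcium channel subunit, a potassium channel subunit and a zinc finger transcription factor. The median distance from Des over all genes was 0.471. The closest to Bves were Irx4 (0.073), 3632451O06Rik (0.082) and Alpk3 (0.105), where Irx4 is a ventricular homeobox factor and Alpk3 a muscle kinase. Popdc2 lay closest to Prkaa2 (0.117), Acta2 (0.126) and Vcam1 (0.128), and Xirp1 to Tmem163 (0.105), Palm2 (0.109) and Alpk2 (0.119). Among the genes themselves the closest pair was Des and Bves, at 0.165. Vcl lay closest to Rnf11 (0.032), Kctd10 (0.041) and Sypl (0.044), and Dmd to Pde8b (0.038), Bloc1s5 (0.067) and Nup210 (0.071), each with a log2 fold change between -0.17 and 0.12. Sgcd lay closest to Cfap54 (0.116), Fahd2a (0.126) and Rarres2 (0.140), and Popdc3 to Pof1b (0.144), Kcnj10 (0.146) and Mcmdc2 (0.174).

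The partners of these proteins were examined in 5 lists of 71 genes, of which 68 were tested. None passed the edgeR FDR, against 0.973% of all genes in either direction. In the same test 15 had an unadjusted p under 0.05 (background 17.4% in either direction), 14 of them lower. The share of all genes lower at this p was not counted, so the 14 have no background to be read against. DESeq2 called 6 at an adjusted p under 0.05 (background 5.35% in either direction). The counts of each list below are to be read against these same shares, and their directions have no background.

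In the dystrophin-glycoprotein list 13 of 15 genes were tested and the median log2 fold change was 0.04. Dystroglycan (Dag1), the receptor that dystrophin holds, was at 298 ± 22.9 CPM in wild-type and 308 ± 6.87 CPM in knockout embryos (SD, n = 4; log2 fold change 0.05, edgeR FDR 0.731). Utrophin (Utrn), the dystrophin relative of early tissues, was at 173 ± 25.7 and 183 ± 3.94 CPM (log2 fold change 0.09, edgeR FDR 0.681). The 1 gene with an unadjusted p under 0.05, also called by DESeq2, was alpha-dystrobrevin (Dtna), at 17.5 ± 3.66 and 28.2 ± 4.89 CPM (log2 fold change 0.68, SE 0.18, edgeR FDR 0.0994).

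In the integrin and vinculin list all 21 genes were tested, with a median of -0.12. Of these, 7 had an unadjusted p under 0.05, each lower, and DESeq2 called 3 of them: Sorbs2 (log2 fold change -0.61, edgeR FDR 0.066), which encodes a vinculin-binding adaptor, the filamin Flnc (-0.37, FDR 0.0814) and Itgb1bp2 (-0.72, FDR 0.121), which encodes the muscle integrin-binding protein melusin. Integrin beta 1 (Itgb1) was at 564 ± 60.7 and 510 ± 39.1 CPM and talin 1 (Tln1) at 260 ± 30.5 and 280 ± 36.4 CPM (SD, n = 4), with FDRs of 0.432 and 0.634.

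Among 12 intermediate filament genes and their linkers the median was 0.03. Vimentin (Vim), the filament of mesenchymal cells, was at 373 ± 63.5 CPM in wild-type and 370 ± 42.0 CPM in knockout embryos (SD, n = 4; log2 fold change -0.01, edgeR FDR 0.966), and nestin (Nes) had a log2 fold change of 0.11 (FDR 0.688). Of the list 2 genes had an unadjusted p under 0.05, the desmin chaperone Cryab (-0.69, SE 0.15, edgeR FDR 0.066), which DESeq2 called, and the desmin partner synemin (Synm, -0.33, FDR 0.264).

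The caveola list had 9 genes tested, a median of 0.12 and 1 gene with an unadjusted p under 0.05, the muscle cavin Cavin4, listed as Murc (-0.41, edgeR FDR 0.213). DESeq2 called 0 of them. Another caveolin gene, Cav1, was at 5.85 ± 1.51 and 6.70 ± 1.58 CPM (SD, n = 4), where Cav3 had at most 5 reads. In the intercalated disc list 13 of 14 genes were tested and the median was -0.05. Of these, 4 had an unadjusted p under 0.05, each lower: Gja5 (-0.59, edgeR FDR 0.143), Dsp (-0.27, FDR 0.207), Gja1 (-0.18, FDR 0.209) and Csrp3. N-cadherin (Cdh2), which Xin joins through beta-catenin, was at 259 ± 24.3 and 251 ± 30.9 CPM (log2 fold change -0.05, edgeR FDR 0.844). Csrp3, which encodes muscle LIM protein, was the 1 gene of this list that DESeq2 called (-0.72, SE 0.18, edgeR FDR 0.0887). Xirp2, the relative of Xirp1, had at most 5 reads in any library.

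**Figure D5:**
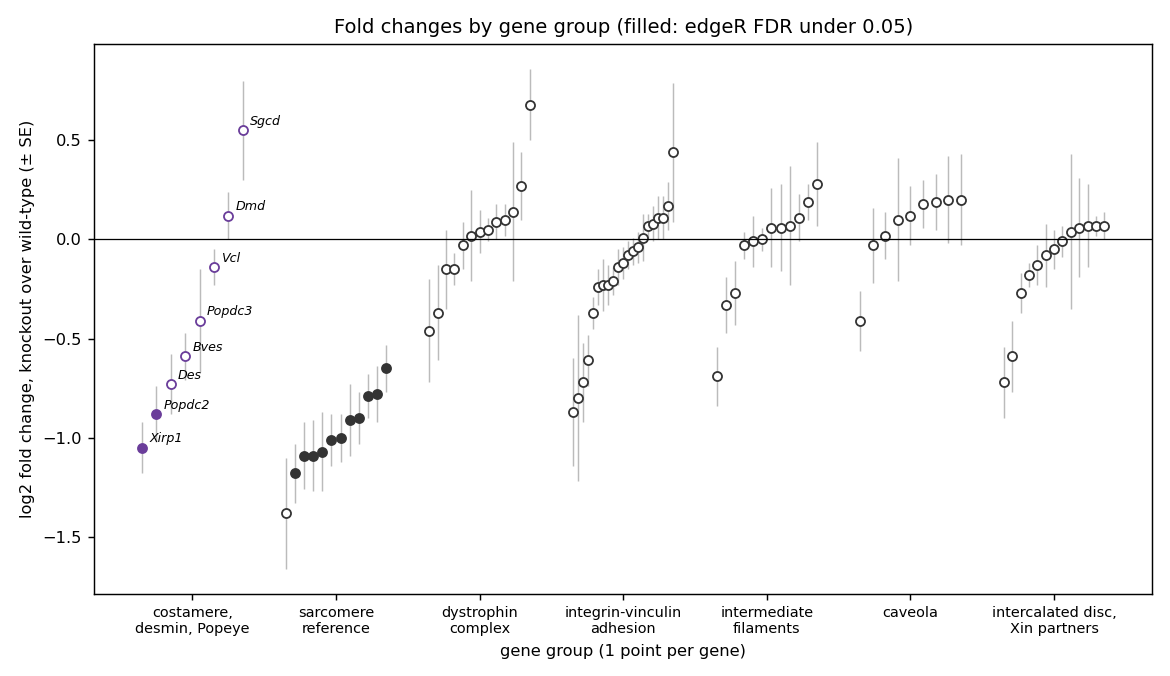
log2 fold change, knockout over wild-type, with SE bars for the 8 tested genes, the 12 sarcomere genes and the 5 partner lists, 1 point per gene, filled where the edgeR FDR was under 0.05. Xirp1, Popdc2 and Des (unfilled) lie within the range of the sarcomere genes, -1.38 to -0.65, whose median is -1.01. The partner lists have medians between -0.12 and 0.12 and hold no filled point. Some of their genes, such as Itga7 (-0.87), Csrp3 (-0.72) and Cryab (-0.69), also lie within the sarcomere range.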

How the data were processed

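RNA was sequenced from single embryos, 4 knockout and 4 wild-type, and genotype and replicate number were taken from the sample titles. The authors mapped reads to mm9 with STAR (introns of 20 to 500000 bases) and counted them with HOMER over the exons of RefSeq transcripts on both strands, so the deposited counts were raw reads per transcript. The deposited RPKM were made by the authors with edgeR from all 31507 entries, which share reads. They were recomputed to within 0.000492 and not used further. The deposited transcript length was in bases. The table also held 6 columns of the authors' own DESeq2 comparison, which were not used. Versions of these tools were not given in the sources used here.

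The entry with the highest summed count was kept for each of 20701 symbols. Counts were analysed with R 4.3.3 and edgeR 4.0.16 (filterByExpr, TMM, quasi-likelihood test, genotype as the only term, two-sided, Benjamini-Hochberg over 14075 genes, FDR 0.05). The model was tested on simulated counts. RPKM in the text are TMM-scaled CPM per kilobase. Single values used exact two-sided permutation tests (scipy 1.17.1), whose smallest p is 0.0286. Values after ± are SDs over 4 embryos, and each SE is from the edgeR fit. Reads carried no molecular identifiers. Positions are from GENCODE vM1 (mm9). Same-numbered embryos deviated together at 0.109, 0.212, 0.0863 and 0.507, so the numbers were not taken as pairs. Alternatives were DESeq2 1.42.0, RLE scaling, no filter, all entries, a replicate block, a Y-linked covariate and leaving out each embryo. Named genes were the members, list genes past the FDR and the 3 closest profiles per member. Since no list gene passed, the list genes named as examples were chosen after their values were seen. The members and lists were chosen with earlier results of these data known.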

Additional observations from a re-analysis of the deposited data

Results flagged for a closer look

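Vcl in knockout embryo 2 was at 242 CPM, against 202 to 205 CPM in the other 3 knockout embryos, a gap that took 0.929 of the range of the group. This was the library labelled total RNA, and it also had the most Afp reads of the group (20258), while knockout embryo 3, with 13074 Afp reads, had 202 CPM of Vcl. Neither trait's part in the value was tested. Without it the log2 fold change of Vcl was -0.20 (edgeR FDR 0.268). Of 34 groups of 4 embryos examined in this way 1 stood out, and chance gives about 1 in 20.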

How the results depend on the processing

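Of 126 fold changes recomputed for the 8 tested genes and Isl1 under the alternatives, 125 kept their direction and 114 also their side of the threshold. Xirp1 and Isl1 passed in every fit. DESeq2 called 4 of the 9 genes in place of 2, adding Des (-0.72) and Bves (-0.58), and called 1 gene of the dystrophin list, 3 of the integrin list, 1 of the intermediate filament list and 1 of the intercalated disc list in place of 0. Over all genes it called 709 in place of 137. The Y-linked covariate gave -0.95 for Des, past the threshold, -0.79 for Popdc2, no longer past it, reversed Dmd to -0.02 and called 1 integrin gene. Leaving out each embryo in turn, 1 to 4 of the 9 genes passed, with 4 without wild-type embryo 3, where 490 of all genes passed, and 70 of all genes passed without knockout embryo 4. In these fits the log2 fold change ran from -0.81 to -0.60 for Des, from -0.69 to -0.50 for Bves and from -0.97 to -0.80 for Popdc2, and 0 to 2 integrin, 0 to 1 intermediate filament and 0 to 1 intercalated disc genes passed. The cause of these changes was not tested. With the replicate number as a block 2 of the 9 genes passed, Popdc2 (-0.88, FDR 0.0431) and Xirp1 (-1.06, FDR 0.013), and 76 of all genes. Only 2 of 8 embryos correlated best with the embryo of their own number. Depth limits Cav3, Popdc3 and Sgcd, which rested on at most 5, 49 and 40 reads per library.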
